A study of Mus musculus with 84 samples.

Results

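H3K4me3 promoter peaks were compared between adipocytes of the 2 older groups of never-obese control mice. CC_l mice were 31 weeks old and had eaten low-fat chow for 25 weeks. CCC mice were 39 weeks old and had spent a further 8 weeks on chow, during which the methods give a different chow formula, so age and chow formula cannot be told apart. Each group holds 2 H3K4me3 libraries (CC_l replicates 1 and 2, CCC replicates 1 and 3), which makes 4 of the 21 H3K4me3 libraries and of the 84 libraries of the series. All animals were male AdipoERCre x NuTRAP mice, in which a tamoxifen-inducible Cre under an adipocyte promoter switches on a reporter that puts biotin on the nuclear envelope, so that adipocyte nuclei can be pulled out of frozen epididymal fat. Peaks were mapped by CUT&Tag: a transposase tethered through an antibody inserts sequencing adapters into the DNA next to the marked nucleosomes. Other groups named below are the younger controls C (18 weeks) and CC_s (26 weeks), the mice on high-fat diet for 12 weeks (H) or 25 weeks (HH), and those returned to chow for 8 weeks afterwards (HC and HHC).

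Groups were taken from the sample titles, and the treatment field of the labels disagrees with the title for 2 of the 4 libraries: CC_l replicate 2 and CCC replicate 3 both carry HH in that field. The counts of gained and lost promoters and of signal calls are therefore also given without each of these libraries and with groups read from the treatment field. The later measure of signal within 10000 bp of a start, and the list counts taken from it, were not refitted in these ways. The labels call the libraries of a group biological replicates, and with 2 against 2 an exact permutation test cannot give a two-sided p below 0.333.

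Trimethylation of lysine 4 of histone H3 is placed by SET1 and MLL methyltransferase complexes around the start sites of active genes and at many CpG-rich promoters of inactive ones. In adipocytes the widest domains of the mark lie over genes of cell identity, among them adipokines, lipid droplet proteins and lipid-making enzymes. Where H3K27me3, the mark of Polycomb repression, lies at the same promoter, the gene is usually silent or expressed at a low level.

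A promoter here is the stretch within 2000 bp of any protein-coding start site of a gene in the GENCODE annotation of GRCm38 (21851 genes), and it counted as marked when a listed peak overlapped it. The lists held 32225 and 35776 peaks in CC_l replicates 1 and 2, and 33990 and 35414 in CCC replicates 1 and 3. The sequencing depth is unknown, since the lists hold coverage only inside peaks. CC_l replicate 1 stood apart from the other 3 libraries. Its median peak width was 1185 bp against 1635, 1822 and 1760 bp, and its median of the highest coverage within a peak was 20 reads against 32, 40 and 41. Its peaks covered 50.8 Mb, against 75.9, 78.2 and 79.4 Mb in the others. The median width was 1410 ± 318 bp (SD, n = 2) in CC_l and 1791 ± 44 bp in CCC (exact permutation p = 0.333, two-sided, the smallest value possible). The number of marked promoters was 13724 ± 7 (SD, n = 2) in CC_l and 13729 ± 88 in CCC (exact permutation p = 1).

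Most marked promoters were the same at both ages. A peak lay over 12760 promoters in all 4 libraries (58.4%), 7021 promoters had none in any library (32.1%), and 2070 were marked in 1 to 3 libraries. The Jaccard index of marked promoters (shared over all marked in either library) was 0.946 between the CCC libraries and 0.900 between the CC_l libraries. Across ages it was 0.945 and 0.947 for CC_l replicate 2 with the CCC libraries, and 0.899 and 0.898 for CC_l replicate 1 with them. CC_l replicate 2 thus overlapped the CCC libraries about as far as these overlapped each other, and CC_l replicate 1 was the least similar whatever the age of its partner. The commonest partial pattern was a peak in CC_l replicate 1 alone, at 517 promoters.

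All 20 adipocyte marker promoters were marked in all 4 libraries, among them Adipoq (adiponectin), Plin1 (perilipin of the lipid droplet), Pparg (the master regulator of fat cell differentiation), Lep (leptin), Fabp4, Cidec, Lipe and Pnpla2. Leukocyte markers were less often marked. Of 16 macrophage markers 9 were unmarked in all 4 libraries, with Adgre1, Lyz2 and Mrc1 among them, and 3 were marked in all 4. Csf1r, Cd68 and Spi1 were among those with a peak in at least 1 library. Of 15 lymphocyte markers 11 were unmarked in all 4, with Ptprc and Cd3e among them, and 2 were marked in all 4. Over all promoters 32.1% were unmarked in all 4. Endothelial markers were marked at 13 of 16 promoters in CC_l replicate 1 and at 7, 8 and 8 in CC_l replicate 2 and CCC replicates 1 and 3.

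Promoters marked in both CCC libraries and in neither CC_l library are called gained, and the reverse lost. There were 101 gained promoters (0.462% of all tested) and 63 lost ones (0.288%). Both calls are presence or absence in 2 libraries against 2 and carry no p. Sequences are shown for the called promoters of highest rank with a RefSeq entry, to set promoters with a peak over the start beside those with a peak at the window's edge. Gm29666 is left out because its RefSeq start lies 3048 bp from its GENCODE start. Each is the RefSeq stretch (GRCm38.p6) from 250 bases before to 50 after the start, 5′ to 3′, with CpG dinucleotides in capitals. Megf6 (chr4:154170463-154170762, plus strand) and Vpreb3 (chr10:75948050-75948349, plus strand) were gained. Arrdc5 (chr17:56300237-56300536, minus strand), Nox4 (chr7:87246399-87246698, plus strand) and Lrrc9 (chr12:72441616-72441915, plus strand) were lost.
Megf6: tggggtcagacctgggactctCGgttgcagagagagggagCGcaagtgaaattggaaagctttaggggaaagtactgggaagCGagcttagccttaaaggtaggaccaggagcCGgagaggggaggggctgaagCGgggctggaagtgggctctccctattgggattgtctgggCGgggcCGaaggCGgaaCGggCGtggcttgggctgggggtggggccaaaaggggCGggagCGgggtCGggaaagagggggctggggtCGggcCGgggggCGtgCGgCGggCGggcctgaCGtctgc
Vpreb3: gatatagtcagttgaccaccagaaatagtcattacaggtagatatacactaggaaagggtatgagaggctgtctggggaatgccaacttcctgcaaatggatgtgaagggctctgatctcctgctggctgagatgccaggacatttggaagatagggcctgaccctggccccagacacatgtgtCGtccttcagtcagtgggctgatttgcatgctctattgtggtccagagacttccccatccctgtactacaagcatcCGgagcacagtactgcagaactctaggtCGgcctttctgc
Arrdc5: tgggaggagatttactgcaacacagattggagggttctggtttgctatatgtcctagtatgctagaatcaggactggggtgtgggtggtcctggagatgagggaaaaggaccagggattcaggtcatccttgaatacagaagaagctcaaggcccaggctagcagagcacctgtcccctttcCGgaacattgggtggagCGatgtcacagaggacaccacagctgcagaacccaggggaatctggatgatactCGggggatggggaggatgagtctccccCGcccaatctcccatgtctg
Nox4: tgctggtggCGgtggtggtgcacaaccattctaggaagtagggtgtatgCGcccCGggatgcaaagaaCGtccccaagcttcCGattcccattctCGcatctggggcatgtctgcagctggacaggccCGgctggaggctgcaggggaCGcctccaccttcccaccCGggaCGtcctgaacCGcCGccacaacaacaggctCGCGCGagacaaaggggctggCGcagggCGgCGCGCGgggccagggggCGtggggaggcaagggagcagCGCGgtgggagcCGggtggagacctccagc
Lrrc9: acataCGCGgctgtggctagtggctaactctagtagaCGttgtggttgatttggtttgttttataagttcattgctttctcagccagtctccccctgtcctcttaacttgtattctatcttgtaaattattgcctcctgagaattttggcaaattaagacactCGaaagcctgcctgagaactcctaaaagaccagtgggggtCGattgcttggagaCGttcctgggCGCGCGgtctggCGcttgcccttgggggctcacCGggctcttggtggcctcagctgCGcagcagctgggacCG
Megf6, Nox4 and Lrrc9 hold 20, 24 and 13 CpG, and in the libraries in which each was marked a peak lay over the printed stretch. Vpreb3 and Arrdc5 hold 3 and 4 CpG, and no peak lay over the printed stretch in any of the 4 libraries: their peaks reached only the edge of the promoter window.

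The gained promoter with the strongest peaks was Gm29666 (chromosome 15), whose peak also covered the promoter of the nuclear pore gene Nup50. Its peak ranked at percentile 89.6 and 89.1 of total signal among all peaks of CCC replicates 1 and 3 and ended 1744 and 1461 bp from the nearest start. In CC_l replicates 1 and 2 the nearest peak was 2527 and 2006 bp away, on the other side of the window's edge. Ocstamp (chromosome 2), which encodes a protein needed for osteoclast fusion, was of the same kind, with peaks 1743 and 1882 bp from the start in CCC and 2904 and 2251 bp in CC_l. Gm20721 followed, at percentiles 62.0 and 50.8.

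The first gained promoter with a peak over a start in both CCC libraries was Cygb (cytoglobin, an oxygen-binding globin of fibroblasts and stellate cells), at percentiles 47.6 and 64.8. Its peak also lay over the promoter of Prcd, and the nearest CC_l peaks were 3041 and 2793 bp off. Megf6, a protein with EGF-like repeats, had peaks of 2394 and 1646 bp at percentiles 53.8 and 44.4, with the nearest CC_l peaks 9081 and 8712 bp away. Lif, a cytokine of the interleukin-6 family, had peaks of 2701 and 1353 bp at percentiles 45.3 and 36.7, with no CC_l peak nearer than 28718 bp. The other promoters ranked in the first 12 were Ablim3, Vpreb3, Plch2, Tmem51, Papln and Prune2, with lower percentiles of 37.0 to 45.9.

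List members stood among the weaker gained promoters. Fgf21, a hormone of fasting and metabolic stress, carried peaks of 1279 and 1129 bp over its start at percentiles 24.5 and 7.35, shared with its neighbour Fut1. Wnt10b, a Wnt ligand that restrains fat cell differentiation, had percentiles of 16.5 and 21.7, and its nearest CC_l peaks were 3545 and 3381 bp away. Cdh1 (E-cadherin, an epithelial marker) had percentiles of 28.8 and 20.8. Fgf21, Wnt10b and Cdh1 were the only gained members of the gene and marker lists. Chosen after their values were seen, the Wnt amplifiers Rspo1 and Rspo2, the prostaglandin synthase Ptgs2, the acute-phase gene Saa3 and the matrix protein Thbs2 were also gained, with lower percentiles of 13.3, 3.93, 3.68, 4.27 and 17.4.

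Among lost promoters Arrdc5 (chromosome 17) had the strongest peaks, at percentiles 84.8 and 82.4, and shared them with Uhrf1, which encodes a factor of DNA methylation maintenance. Those peaks ended 1858 and 1634 bp from the Arrdc5 start in CC_l, and the nearest CCC peaks were 2059 and 2004 bp away, just outside the window. Nox4, an NADPH oxidase that makes hydrogen peroxide, lost a peak of its own. It measured 903 and 1494 bp over the start at percentiles 39.5 and 37.1, and no peak lay nearer than 470058 bp in either CCC library. Lrrc9 had percentiles of 60.6 and 35.6, with the nearest CCC peaks 19250 and 19567 bp off. Npy1r, a receptor of neuropeptide Y, had percentiles of 28.7 and 33.9.

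Leukocyte genes stood on both lists, and no list or share of them was tested. Among lost promoters Itgb2 (CD18, the beta chain of leukocyte integrins) had a lower percentile of 32, and Arhgap25, a GTPase regulator of phagocytes, at 60.3 and 27.8. Further leukocyte genes were picked after their values were seen. Rhoh, Stat4, Gimap1, Tagap and Pou2af1 were lost, at lower percentiles of 22.8, 16.5, 14.8, 12.2 and 9.87. The B cell gene Vpreb3 and the chemokine Ccl1 (lower percentile 19.5) were gained. The Vpreb3 peaks lay at the window's edge, 1908 and 1836 bp from the start in CCC, and CC_l replicate 2 had a peak 2179 bp away. Of the marker lists only the endothelial gene Pecam1 (CD31) was lost, at percentiles 45.3 and 13.1 with a peak shared with Milr1, and no macrophage or lymphocyte marker was gained or lost. The summed signal of the macrophage markers was 1.32 and 1.45 per 10000 of all promoter signal in CC_l and 1.55 and 1.25 in CCC, so the groups overlapped. That of the lymphocyte markers was 0.739 and 0.668 in CC_l against 0.632 and 0.809 in CCC, and that of the endothelial markers 2.01 and 1.61 against 1.89 and 1.61. Whether other cells had a part in these losses was not tested. The other lost promoters in the first 12 were Gm3248, Efhc2, Ldb2, Dmrta2, Gm21149 and 1700029I15Rik. Predicted and RIKEN gene models made up 22.2% of lost promoters, 5.94% of gained ones and 9.20% of all, and since some such families are near-identical copies, their peaks are uncertain.

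Called promoters carried weak peaks. The lower of the 2 percentiles had a median of 14.9 over gained and 12.0 over lost promoters, whereas promoters marked in all 4 libraries had median percentiles of 81.3 to 83.5. It was under 25 at 76 of 101 gained and 52 of 63 lost promoters, and above 50 at 3 and 1. A peak covered a start site in both libraries at 57 gained and 28 lost promoters. At 80 gained and 46 lost promoters no peak lay within 5000 bp in the group called unmarked. With only the 75% of peaks of highest signal kept in each library, 81 promoters were gained and 53 lost, of which 25 and 11 were in the original lists. With the 50% of highest signal the counts were 91 and 46, of which 3 and 1 were original. The lists at the stricter thresholds were thus made up mostly of other promoters. A called promoter whose lower percentile lies under the cut is dropped by construction. The loss of the original genes therefore restates their percentiles and is no separate test of them.

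**Figure D1:**
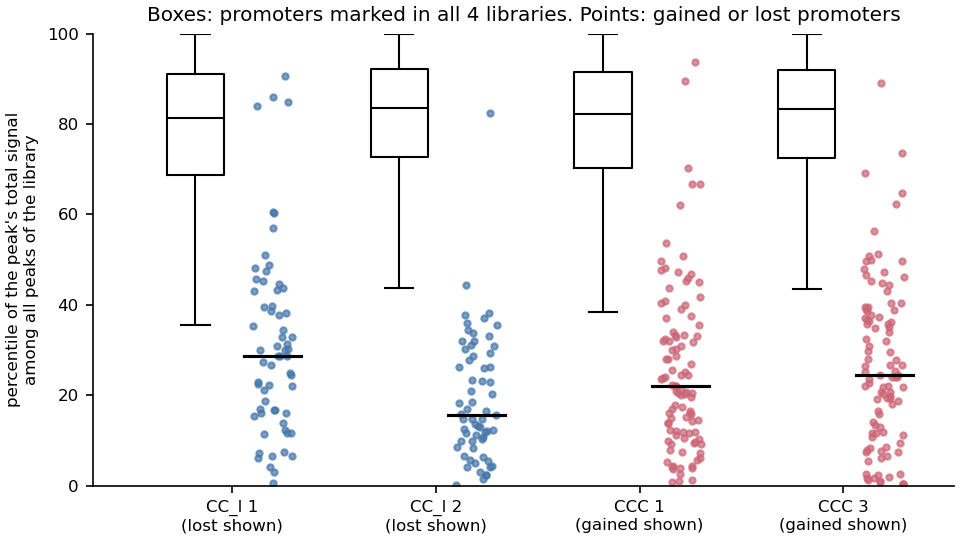
Percentile of the total signal of the strongest peak over each promoter among all peaks of its library (y axis) in the 4 libraries (x axis). Boxes give the median and quartiles of the 12760 promoters marked in all 4 libraries, with whiskers to 1.5 interquartile ranges, and points give lost promoters in CC_l and gained promoters in CCC with a bar at the median; the points lie mostly below the boxes.

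With a library left out the rule asks for fewer libraries, so no call can be lost and the counts can only stay or rise. Without CC_l replicate 2 there were 514 gained and 580 lost promoters, and without CCC replicate 3 there were 226 and 171. With groups read from the treatment field the counts were 52 and 50, of which 10 and 5 belonged to the original lists.

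Both lists were also marked in part in the 17 H3K4me3 libraries that the calls did not use. Among the younger controls, gained and lost promoters were marked at 10.9% and 20.6% in C replicate 1, 32.7% and 28.6% in C replicate 2, and at 13 of 101 and 12 of 63 in C replicate 3. In H replicates 1 and 2 the gained list was lower than the lost list, at 5.94% and 7.92% against 30.2% and 28.6%. In CC_s the shares were 0% in replicates 1 and 2 for both lists, and 7.92% and 4.76% in replicate 3. The CC_s libraries marked fewer promoters altogether, 46.4% to 55.3% of all against 62.5% to 63.1% in CC_l and CCC. In the HH libraries, of the same age as CC_l, the gained list was marked at 48.5% and 54.5% and the lost list at 61.9% and 50.8%. In HHC, of the same age as CCC, the shares were 35.6%, 73.3% and 67.3% for gained and 60.3%, 85.7% and 73.0% for lost. Gained promoters were thus not marked more often than lost ones in all of the 39-week HHC libraries: they were lower in each of the 3. Only 6 gained and 6 lost promoters were marked in none of the 17 libraries.

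**Figure D2:**
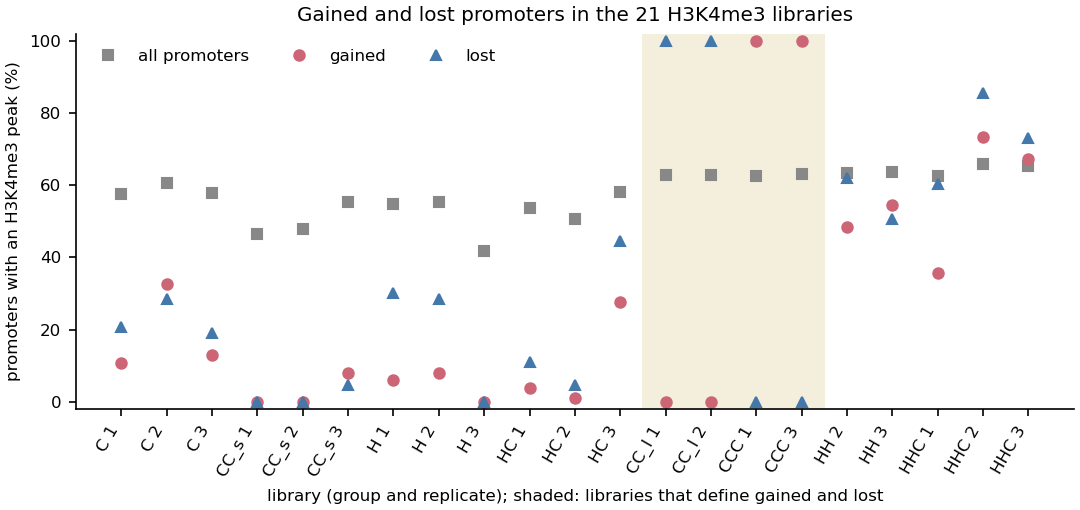
Share of promoters with an H3K4me3 peak (y axis, %) in each of the 21 libraries (x axis, group and replicate) for all promoters, the 101 gained and the 63 lost. The shaded CC_l and CCC libraries define the lists; outside them the shares run from 0% for both lists in CC_s replicates 1 and 2 to 73.3% and 85.7% in HHC replicate 2, and in H replicates 1 and 2 the lost share is above the gained one.

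The same rule applied to other groups 8 weeks apart shared few promoters with these lists, and in either direction. HC and HHC mice had also left the high-fat diet, and groups of 3 libraries make the rule stricter. The CC_s libraries marked 46.4% to 55.3% of promoters against 57.5% to 60.6% in C. The small overlap is therefore no measure of age alone. CC_s against C, the younger control pair with 3 libraries each, gave 0 gained and 379 lost promoters, of which Ldb2, Rhoh and Arhgap25 were also lost in CCC. They were 0.792% of that lost list and 4.76% of the CCC one, and 2 other promoters lost there were gained in CCC. HC against H gave 35 gained and 3 lost promoters, none of which was on either CCC list. HHC against HH gave 96 gained and 47 lost promoters. Of these Aldh1a3, Rmi2, Mymx and Cst6 were also gained in CCC (4.17% of that list and 3.96% of the CCC one), and 1700029I15Rik was also lost. In the opposite direction, 3 promoters gained there were lost in CCC and 2 lost there were gained in CCC, as many as in the same direction.

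Gained and lost promoters shared the Polycomb mark. An H3K27me3 peak lay over 67.3% and 53.5% of gained promoters in CC_l replicates 1 and 2 and over 56.4% and 49.5% in CCC replicates 1 and 3. The lost promoters stood at 60.3% and 49.2% in CC_l and 50.8% and 39.7% in CCC, and all promoters at 17.9% to 27.1%. Both lists were above all promoters in each of the 4 libraries, at both ages. Megf6, Cdh1, Wnt10b, Rspo1, Rspo2 and Npy1r carried H3K27me3 in all 4 libraries. H3K4me1, the mark of enhancers and promoter flanks, lay over 28.7% to 44.6% of gained and 6.35% to 14.3% of lost promoters, beside 31.1% to 37.9% of all. H3K27ac, a mark of active elements, lay over 17.8% and 16.8% of gained promoters in CC_l and over 23.8% and 2.97% in CCC. CCC replicate 3 had few H3K27ac promoter peaks in all, at 17.7% of promoters against 46.7% to 53.6% in the other 3 libraries. At lost promoters the H3K27ac shares were 36.5% and 6.35% in CC_l and 7.94% and 1.59% in CCC. The groups did not separate beyond their spread at gained promoters, and at lost ones CC_l replicate 1 alone was high.

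Called promoters were intermediate in CpG content. RefSeq sequences existed for 73.3% of gained, 68.3% of lost and 75.7% of all promoters. The same 300-base stretch at each gene's first GENCODE start was therefore read from the GRCm38 genome. The median ratio of observed to expected CpG was 0.423 over gained, 0.295 over lost, 0.756 over promoters marked in all 4 libraries and 0.171 over those marked in none. The GC box letters GGGCGG, on either strand, occurred in 46.5% of gained and 20.6% of lost stretches, beside 44.9% of all. The letters TATAAA, on either strand, occurred in 13.9% and 17.5%, beside 12.5% of all. These shares describe letters within the 300 bases only.

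Signal was next compared at the 12760 promoters marked in all 4 libraries. For each library the total signal of every peak touching a promoter was summed, put on a log2 scale and set relative to the library's median promoter, and limma was fitted across all promoters. At an adjusted p under 0.05, 9 promoters were higher (0.0705%) and 1 was lower (0.00784%) in CCC, 0.0784% in all. Before adjustment 513 were higher (4.02%) and 269 lower (2.11%) at p under 0.05, 6.13% together. Without CC_l replicate 2 the counts were 219 higher and 21 lower, without CCC replicate 3 they were 0 and 0 (547 promoters at an unadjusted p under 0.05), and with groups from the treatment field they were 0 and 0 (210 at that unadjusted p).

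At several of these promoters the peak covered a neighbour's promoter in both CCC libraries and in neither CC_l library. Cend1 (chromosome 7), a neuronal regulator of cell cycle exit, had relative log2 signals of -2.73 and -2.77 in CC_l and 1.65 and 1.59 in CCC, a difference of 4.37 (SE 0.18, limma adjusted p = 0.000261). In both CCC libraries its peak, 8618 and 9544 bp long, also covered the promoter of Slc25a22, a mitochondrial glutamate carrier. In CC_l a separate peak lay over that neighbour, 816 and 465 bp away from the Cend1 peaks. Hist1h3g, a replication-dependent histone gene (difference 2.35, adjusted p = 0.00219), joined a peak with Hist1h4h. B3galt4 (2.11, adjusted p = 0.0161) joined one with Rps18 and Vps52, and Pcdhgc5 (2.75, adjusted p = 0.0168) joined one with Pcdhgc4. Mcm2, a subunit of the replicative helicase, was the 1 lower promoter. Its values were 1.23 and 1.33 in CC_l and -1.17 and -1.49 in CCC (difference -2.61, SE 0.17, limma adjusted p = 0.00274). The peak over the neighbouring Tpra1 promoter ended within the Mcm2 window in CC_l, at positions -1707 and -1280 relative to its start, and just outside it in CCC, at -2032 and -2267. In CCC replicate 3 the Mcm2 peak itself also touched the Tpra1 promoter.

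Another 4 promoters differed with no neighbour under the peak: Acacb, Slc25a1, Htra3 and Adap1. Acacb encodes acetyl-CoA carboxylase 2, which makes malonyl-CoA at the mitochondrial surface, and Slc25a1 the carrier that exports citrate from mitochondria for fatty acid synthesis. Htra3 is a secreted serine protease and Adap1 a GTPase-activating protein for Arf6. The RefSeq promoters of Slc25a1 (chr16:17928170-17928469, minus strand) and Htra3 (chr5:35679731-35680030, minus strand), chosen after their values were seen, are printed as above to set a CpG-rich beside a CpG-poor start with long CCC peaks.
Slc25a1: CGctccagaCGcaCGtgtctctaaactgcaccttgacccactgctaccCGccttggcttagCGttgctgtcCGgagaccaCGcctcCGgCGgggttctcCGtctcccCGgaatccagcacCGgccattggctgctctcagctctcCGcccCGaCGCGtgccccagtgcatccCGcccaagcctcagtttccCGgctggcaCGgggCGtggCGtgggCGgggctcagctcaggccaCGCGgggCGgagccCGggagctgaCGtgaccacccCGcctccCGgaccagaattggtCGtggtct
Htra3: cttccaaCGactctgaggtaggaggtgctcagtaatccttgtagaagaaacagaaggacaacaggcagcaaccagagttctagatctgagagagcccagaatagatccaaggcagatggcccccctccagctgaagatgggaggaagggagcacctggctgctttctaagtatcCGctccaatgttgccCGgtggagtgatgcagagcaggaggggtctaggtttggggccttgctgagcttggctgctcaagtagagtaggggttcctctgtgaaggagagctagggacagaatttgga
Slc25a1 has 30 CpG and Htra3 has 3, so in these 2 genes long CCC peaks lay over a CpG-rich and a CpG-poor start. A peak lay over the Slc25a1 stretch in all 4 libraries and over the Htra3 stretch in all except CC_l replicate 1.

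At Acacb the peaks touching the promoter measured 3035 and 3077 bp in CC_l and 17107 and 17833 bp in CCC. The CCC widths add a separate downstream peak of 2573 and 2173 bp, which touched the window of another start, to a peak of 14534 and 15660 bp. In CC_l replicate 2 a peak from 14964 to 16975 bp fell outside that window and was not counted. The relative log2 signal was 0.53 and 0.75 in CC_l and 2.04 in both CCC libraries, a difference of 1.40 (SE 0.13, limma adjusted p = 0.0168). The positions of the peaks showed that much of the same stretch was marked in CC_l as separate peaks. In CC_l replicate 2 the promoter peak ended 1996 bp after the first start, and the next peak ran from 2448 to 12251 bp after a gap of 451 bp. In CCC replicates 1 and 3 a single peak ran on to 11346 and 12141 bp. Htra3 was alike: in CC_l replicate 2 a gap of 275 bp separated the promoter peak from one that ended at 11710 bp, and in CCC a single peak reached 11540 and 11312 bp. At Slc25a1 the promoter peaks ended 1570 and 2387 bp after the start in CC_l, with gaps of 3498 and 1123 bp before the next, and at 8360 and 8047 bp in CCC. The gene is shorter than that, so much of the CCC peak lay beyond its end, over a stretch that was a separate peak in CC_l (5069 to 7505 bp and 3511 to 7435 bp).

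**Figure D3:**
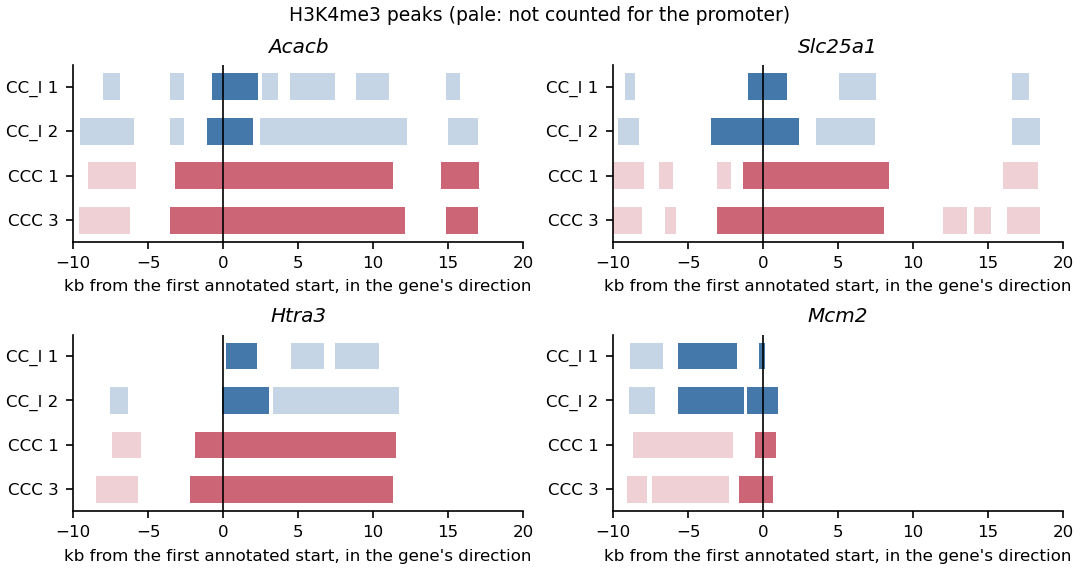
H3K4me3 peaks around Acacb, Slc25a1, Htra3 and Mcm2 in the 4 libraries (rows), by distance from the first annotated start in the gene's direction (x axis, kb). Full colour marks peaks counted for the promoter and pale colour the other peaks; at Acacb and Htra3 the stretch that is 1 peak in CCC is several peaks in CC_l, and at Mcm2 the neighbouring peak touches the window in CC_l only.

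A measure meant to depend less on where peaks were split was added after this was seen: all peak signal within 10000 bp of a start, with peaks clipped at that distance. A peak crossing that distance was counted by the share of its width inside it, so splits there still mattered. Gaps between peaks carried no signal. Over 13925 promoters 1 was higher (0.00718%) and 0 lower at an adjusted p under 0.05 in limma, with 727 higher and 372 lower at an unadjusted p under 0.05. The called promoter was Adap1 (chromosome 5). Its relative log2 signal was -0.11 and 0.00 in CC_l and 1.20 and 1.11 in CCC, a difference of 1.20 (SE 0.14, limma adjusted p = 0.0301). The other 9 promoters were no longer called. Cend1 differed by 0.39 (adjusted p = 0.525), Acacb by 0.37 (0.515), Slc25a1 by 0.44 (0.438), Htra3 by 0.75 (0.28), Mcm2 by -0.18 (0.759) and Hist1h3g by -0.004 (0.995). The Adap1 call was lost without either CCC library in the sum over peaks that touch the promoter (adjusted p of 0.41 without replicate 1 and 0.305 without replicate 3).

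**Figure D4:**
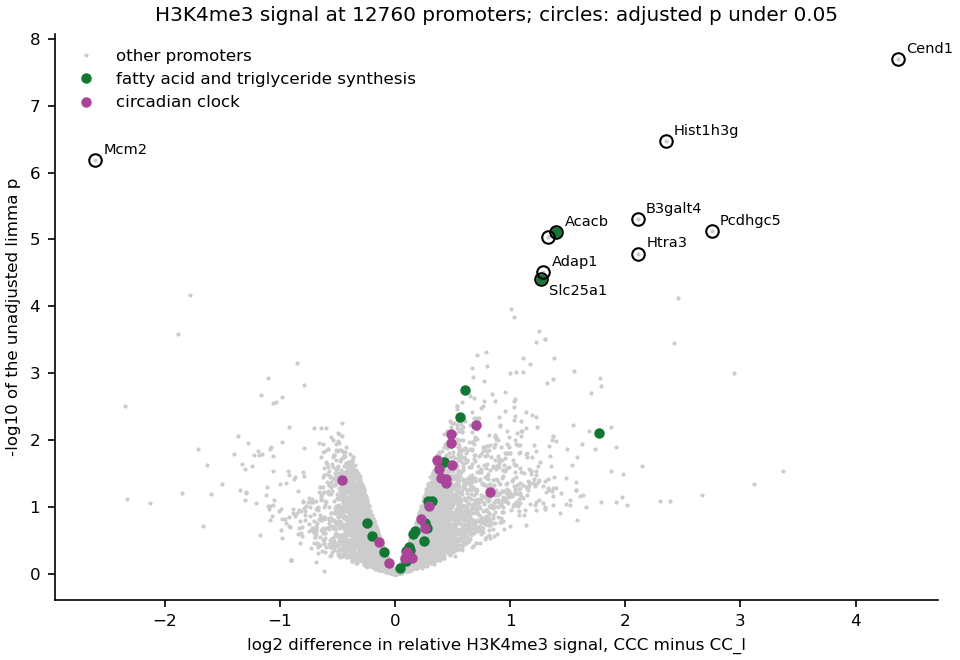
Log2 difference in relative H3K4me3 signal, CCC minus CC_l (x axis), against the unadjusted limma p on a -log10 scale (y axis) for the 12760 promoters marked in all 4 libraries. Circles mark the 10 promoters with an adjusted p under 0.05, and filled points the members of 2 gene lists, most of which lie to the right of 0; of these only Acacb and Slc25a1 passed adjustment.

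In the sum over whole peaks and in the 10000 bp measure, enzymes of fatty acid and triglyceride synthesis were mostly higher in CCC by small amounts. All 22 list members were marked in all 4 libraries. In the sum over peaks touching the promoter 19 of 22 had a difference above 0, with a median of 0.21 on the log2 scale beside -0.01 over all promoters, and Acacb and Slc25a1 passed adjustment. At an unadjusted p under 0.05, 6 of 22 were higher (27.3% beside 4.02% of all promoters) and 0 lower. In the 10000 bp measure 17 of 22 had a difference above 0, with a median of 0.15, and 6 were higher and 1 lower at that unadjusted p, beside 5.22% and 2.67% of all promoters. None of the 22 passed adjustment there.

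The 6 higher members span citrate export, malonyl-CoA synthesis, fatty acid activation and the first acylation of glycerol phosphate. Acly, which splits citrate into acetyl-CoA, had a relative log2 signal within 10000 bp of 1.27 and 1.37 in CC_l and 2.00 and 1.85 in CCC (limma unadjusted p = 0.000344, adjusted p = 0.208). Acaca, acetyl-CoA carboxylase 1, differed by 0.60 (SE 0.11), with both CCC libraries at 2.10 and above both CC_l libraries (unadjusted p = 0.000201, adjusted p = 0.14). Acacb, Slc25a1, the acyl-CoA synthetase Acsl1 and the glycerol-phosphate acyltransferase Gpam completed the 6. Fasn, the fatty acid synthase itself, had 2.20 and 2.14 against 2.28 and 2.06, so its groups overlapped. Dgat2, which makes the last step to triglyceride, was the 1 lower member, with 2.62 and 2.49 in CC_l against 1.96 and 2.17 in CCC (unadjusted p = 0.00204, adjusted p = 0.399). With groups read from the treatment field, 9 of 21 members had a difference above 0 in the sum over peaks, with a median of -0.03. The median in that sum was 0.21 without CC_l replicate 2 and 0.21 without CCC replicate 3. Restricted to the part of each peak inside the promoter window, the median was -0.09 and 9 of 22 were above 0. That measure spreads a peak's signal evenly over its width, so a longer peak is scored lower at its start. With the highest coverage in place of the total signal, the median was 0.079 and 13 of 22 were above 0. At an unadjusted limma p under 0.05, 2 were then higher (9.09% beside 2.23% of all promoters) and 1 was lower.

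Peak widths at Acacb and Acaca in other groups were not scaled between libraries, so no order by age can be read from them. The CC_s lists covered 16.4, 19.8 and 38.1 Mb in all, and the HH and HHC mice also differed in diet. The peaks touching Acacb measured 4413, 2835 and 8565 bp in C and 2063, 2094 and 2377 bp in CC_s. They measured 2596 and 3922 bp in HH, 3506 and 8770 bp in HHC replicates 1 and 2, and HHC replicate 3 had none. At Acaca, C reached 11797, 11041 and 13323 bp, while the 3 HHC libraries had no peak. H3K27ac at Acacb covered 25142 and 28236 bp in CC_l and 24527 and 4404 bp in CCC, so the acetylation domain was already long at 31 weeks. H3K27me3 had no peak at Acacb, Acaca or Slc25a1 in any of the 4 libraries.

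Circadian clock promoters also showed small differences. All 20 were marked in all 4 libraries, and 16 of 20 had a difference above 0 in the 10000 bp measure, with a median of 0.20. At an unadjusted p under 0.05, 8 of 20 were higher, beside 5.22% of all promoters, and 1 was lower, and none passed adjustment. Among the higher ones were Csnk1e (casein kinase 1 epsilon), the repressors Bhlhe40, Bhlhe41, Ciart, Nr1d1 and Nr1d2, and the activator Hlf. Csnk1e had -0.42 and -0.22 in CC_l against 0.35 and 0.42 in CCC (unadjusted p = 0.00115, adjusted p = 0.339). Nr1d1 (Rev-erb alpha) had 1.27 and 1.64 in CC_l and 1.86 and 1.75 in CCC (unadjusted p = 0.0263, adjusted p = 0.606). Clock, which encodes an activating partner of the clock, was the 1 lower promoter, at -0.21 and -0.06 against -0.78 and -0.41 (unadjusted p = 0.0422, adjusted p = 0.63). Arntl, its partner, had 1.05 and 0.99 against 1.06 and 0.84, and its groups overlapped. In the sum over peaks the list's median was 0.33. At an unadjusted limma p under 0.05, 9 were higher and 1 lower, beside 4.02% and 2.11% of all promoters. The list's median was 0.19 without CC_l replicate 1. Without CCC replicate 3, 1 was higher and 1 lower, and with groups from the treatment field none was, with a median of 0.11. Inside the promoter window the median was 0.0054, with 10 of 20 above 0. There 2 were higher (10% beside 3.68% of all promoters) and 1 lower. With the highest coverage the median was 0.065, with 2 higher (10% beside 2.23% of all promoters) and 0 lower. The time of day at which tissue was taken is not given in the sources used here.

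**Figure D5:**
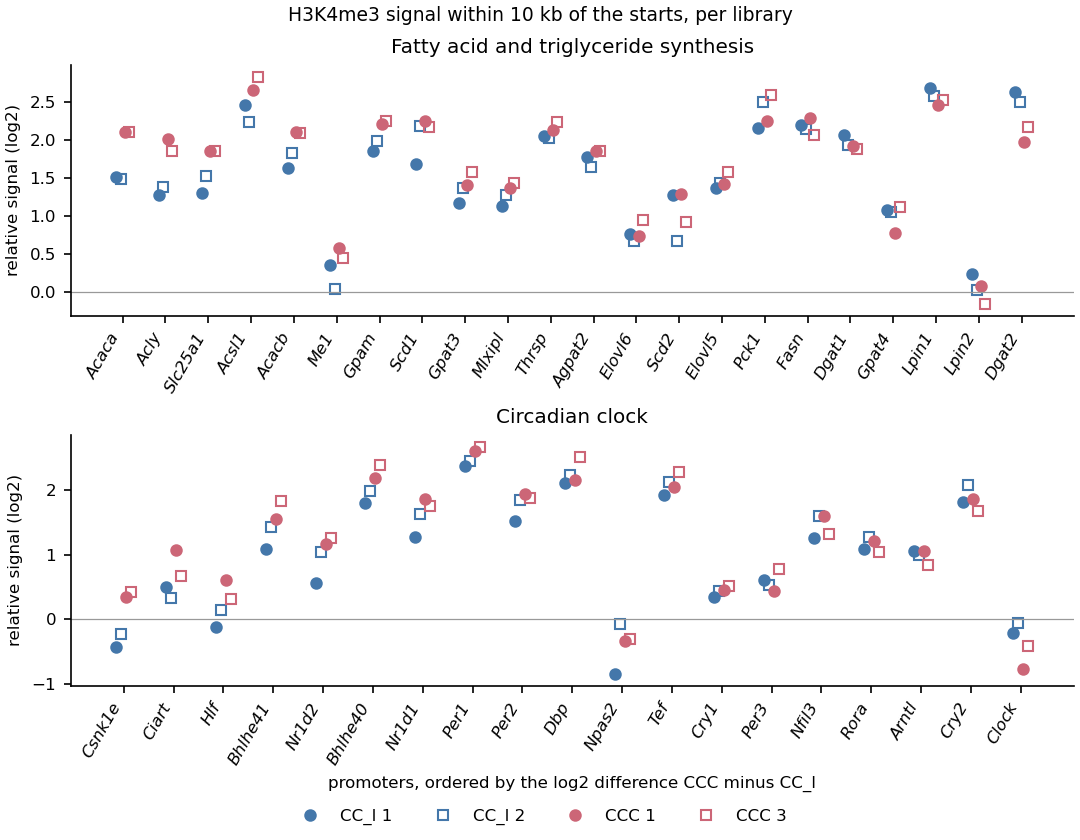
Relative H3K4me3 signal within 10000 bp of the starts (y axis, log2, 0 is the library's median promoter) for the members of 2 gene lists (x axis, ordered by difference), one point per library. CCC points lie above both CC_l points at 11 of 22 lipid synthesis promoters and 10 of the 19 clock promoters plotted, and below both at 3 and 1, beside 19.6% and 18.7% of all promoters.

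In the remaining lists no member passed adjustment in the 10000 bp measure, and the counts that follow are at an unadjusted p under 0.05, beside 5.22% higher and 2.67% lower over all promoters. Among thermogenic genes 14 were tested, with 5 higher (35.7%: Slc6a8, Kcnk3, Cidea, Cox8b and Elovl3) and 1 lower (Ppargc1a, a mitochondrial coactivator), while Ucp1 had no peak in any of the 4 libraries. Of 22 insulin signalling genes 5 were higher (22.7%: Akt2, Akt1, Grb10, Tbc1d1 and Irs2). Of 17 ion channel genes 15 had a difference above 0 and 2 were higher (Cacna1h and Kcnh2), with a median of 0.27. Of 28 nuclear receptors 22 had a difference above 0 and 0 were higher, and of 27 genes of the TGF-beta, BMP and activin pathway 21 had a difference above 0 and 5 were higher (Tgfbr2, Smad6, Acvr1b, Nog and Fstl3). Of 25 respiratory chain genes 0 were higher and 1 was lower, with a median of -0.06. Of 18 senescence genes 1 was higher and 2 were lower (Cdkn1a and Cdkn1c), and of 23 nutrient sensing and ageing regulators 1 was higher (Nfe2l2). Of 19 H3K4 methylation and demethylation enzymes 0 were higher and 1 was lower (Men1, menin of the MLL complexes). Adipocyte markers had a median of 0.03 over 20 promoters. Their summed signal was 51.5 and 75.5 per 10000 of all promoter signal in CC_l replicates 1 and 2. In CCC replicates 1 and 3 it was 69.9 and 78.4, so the groups overlapped and CC_l replicate 1 was lowest. Mural cell markers had a median of 0.79 over 8 promoters, all above 0 and 3 higher (Cspg4, Acta2 and Myh11), and their summed signal was 1.99 and 3.17 per 10000 of all promoter signal in CC_l and 4.09 and 4.30 in CCC. Rgs5 and Cnn1 of that list had no peak in any library, and the part of mural cells in other results was not tested.

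None of 8 core adipocyte promoters passed adjustment in the sum over peaks. Adipoq had a difference of -0.17 (SE 0.25, limma adjusted p = 0.904), Pparg -0.07 (0.946), Lep 0.10 (0.912), Fabp4 0.23 (0.808) and Lipe -0.03 (0.986). Plin1 differed by 0.47 (unadjusted p = 0.0213, adjusted p = 0.784), Cidec by 0.13 (0.919) and Pnpla2 by 0.64 (0.796).

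Peak breadth, the summed width of the peaks touching a promoter, gave no call. In simulated data the same test called 0 of 100 promoters with a planted log2 change of 1, and 0 of 100 with 2. The lack of calls therefore does not show that widths were unchanged. Of the 12760 promoters 0 were wider and 0 narrower at an adjusted p under 0.05 in limma, with 394 wider (3.09%) and 199 narrower (1.56%) at an unadjusted p under 0.05, 4.65% together. The smallest p values among wider promoters belonged to Acacb, Htra3, Pcdhgc5 and C3, the central complement protein that adipocytes also secrete, with C3 at 1568 and 2212 bp in CC_l and 6851 and 6519 bp in CCC (difference 1.66, adjusted p = 0.4). Among narrower promoters they belonged to Stk4, Mcm2, Inpp5d and Apobec3. Inpp5d, a phosphatase of blood cell signalling, measured 2972 and 4476 bp against 1642 and 1478 bp (difference -1.41, adjusted p = 0.603). In signal, the lower promoters next after Mcm2 were Stk4, Scara5 and Kri1. Scara5, a scavenger receptor of progenitor cells, differed by -1.89 in the sum over peaks (adjusted p = 0.204) and by -1.89 within 10000 bp (adjusted p = 0.129).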

How the data were processed

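Per the labels and the methods, the authors trimmed reads with Trim Galore 0.6.6, aligned them to mm10 with Bowtie2 2.4.4, and called peaks in each library with SEACR 1.3 (numeric threshold 0.01, stringent). The deposited lists give each peak's total signal and highest signal as unscaled coverage. Depth is therefore confounded with these values, which were used only relative to each library. Overlap, ranks and figures were computed with Python 3.11.15, pandas 2.3.3, numpy 2.4.6 and matplotlib 3.10.9, and log2 relative values were fitted with limma 3.58.1 in R 4.3.3 (moderated test with trend, Benjamini-Hochberg adjustment over all promoters). The scripts were tested on simulated data. With planted log2 changes of 1 and 2, the signal test called 19 and 68 of 100 changed promoters, and the breadth test 0 and 0 of 100. Named genes were the 12 gained and 12 lost promoters of highest lower percentile, the 8 largest called differences per direction or, where fewer passed, those and the smallest p values up to 4, called members of the 23 gene lists and 9 marker lists, and 8 adipocyte markers. Members and lists were chosen with earlier results of these data known. The libraries are labelled as biological replicates; whether each is a separate mouse is not given in the sources used here, so p-values measure the spread between these libraries. Results for 4 genes of these lists and calls are not reported by name here.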

Additional observations from a re-analysis of the deposited data

How the results depend on the processing

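No paired analysis was possible because the groups share only 1 replicate number. Beside the 101 gained and 63 lost promoters, groups from the treatment field gave 52 gained. Leaving out 1 library at a time gave 178 to 514 gained and 133 to 580 lost, counts that by construction cannot fall below the original ones. Beside 9 higher and 1 lower signal calls there were 0 and 0 with groups from the treatment field, 0 higher in a fit over 9 libraries, 3 and 2 with the highest coverage (3 of the 10 kept), and 1 and 0 within 10000 bp (1 kept). Inside the window there were 2 and 2, with peaks up to 1000 bp apart joined 6 and 0, and up to 3000 bp 13 and 1, with 0 of the 10 kept in each. There were 2 lower calls with a window of 500 bp and 0 with promoters above the median only. Leaving out 1 library gave 0 to 219 higher and 0 to 21 lower calls, and for breadth 0 to 16 wider and 0 narrower. The signal difference turned at Acacb inside the window (-0.49), Hist1h3g within 10000 bp (-0.0044) and Mcm2 with a window of 500 bp (0.43). Mcm2 breadth turned with a window of 500 bp (0.80), inside the window (0.24), with peaks up to 3000 bp apart joined (0.014) and within 10000 bp (0.0057). The difference in peak number was -437.5 with groups from the treatment field and -1074 to 2477 without 1 library. For marked promoters these were -77.5 and -58 to 67, and for the percentage of peaks at promoters -8.37 to 0.855 without 1 library. The measures inside the window, joined and within 10000 bp were chosen after seeing the data. The cause was not tested. Depth is unknown, so weak peaks missed for lack of reads cannot be told apart from absent ones.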
